A study of Homo sapiens with 96 samples.

Results

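The E2F and RB family was followed through its mRNA in A375 cells, an established human melanoma line that grows through a mutated BRAF kinase. The members were taken by symbol from the table of raw counts. They were the E2F genes E2F1, E2F2, E2F3, E2F4, E2F7 and E2F8, the dimer partner TFDP1, and the pocket protein genes RB1, RBL1 (p107) and RBL2 (p130). These are 10 of the 44659 entries in the table, and 9 of the 10 passed the filter on low counts, which left 14948 entries for testing. E2F2 did not pass, with 4 counts in all over the 96 libraries.

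E2F proteins bind DNA as dimers with a DP protein such as TFDP1 and control the genes that a cell needs to enter S phase. E2F1, E2F2 and E2F3 are known as activators, E2F4 mostly recruits pocket proteins to repress in resting cells, and E2F7 and E2F8 repress without a DP partner or a pocket protein. RB, p107 and p130 hold E2F proteins inactive until cyclin-dependent kinases phosphorylate them, and cyclin D1, whose gene depends on ERK signalling, is the first cyclin in that sequence.

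Cells were kept for 18 h in DMSO or in MAPKi, which is vemurafenib and cobimetinib at 500 nM each, inhibitors of BRAF and of MEK. They then received vehicle, cycloheximide (CHX, 100 µg/ml, which stops translation elongation), triptolide (T, 25 µM, which stops transcription) or both (TCHX), where CHX came 5 min before triptolide. Harvests at 0, 1, 3 and 5 h gave 32 groups of 3 libraries. Cytoplasmic RNA was read by QuantSeq, a 3′ end assay in which the number of reads does not grow with transcript length.

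Libraries held between 2381351 and 12520154 counts. The defining melanocytic genes SOX10, MITF, S100B and DCT were present, with median levels of 285, 331, 280 and 622 CPM (each count as a share of its library's total, on a fixed scale), while PMEL was low at 3.43 CPM and MLANA and TYR were near 0. These markers themselves moved with MAPKi, with DCT (5.29) and PMEL (3.80) higher and S100B (-0.49) lower on the log2 scale, and their part in the members' changes was not tested. The markers of epithelial cells, fibroblasts, leukocytes and endothelial cells were at or near 0, the highest single value being 7.36 CPM for LUM. The labels do not say that replicates came from separate cultures, so the p-values measure the spread between these libraries, which may be technical. In bulk RNA, fewer cells in S phase and less of an mRNA per cell cannot be told apart.

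Some promoters of the members hold the letters of an E2F motif, and the sequences below are those with a match within 100 bases of the start. They were chosen for display with the CHX results known. E2F1 and RBL1, the members whose response to CHX differed between pretreatments, each have 2 matches, and any relation of the matches to that response was not tested. Each is the stretch of 100 bases that ends just before the RefSeq start on GRCh38.p14, and capitals mark the letters TTTCCCGC, TTTCGCGC, TTTGCCGC or TTTGGCGC on either strand.
E2F1, chr20:33686386-33686485, minus strand: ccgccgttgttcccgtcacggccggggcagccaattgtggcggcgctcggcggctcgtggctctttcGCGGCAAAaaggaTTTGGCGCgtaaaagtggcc
RBL1, chr20:37095998-37096097, minus strand: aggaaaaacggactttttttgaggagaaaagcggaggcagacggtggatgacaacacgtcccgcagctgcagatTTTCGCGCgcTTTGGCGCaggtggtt
E2F2, chr1:23531234-23531333, minus strand: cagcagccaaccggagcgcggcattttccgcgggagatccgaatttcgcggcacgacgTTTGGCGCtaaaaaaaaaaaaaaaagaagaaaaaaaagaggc
E2F3, chr6:20401779-20401878, plus strand: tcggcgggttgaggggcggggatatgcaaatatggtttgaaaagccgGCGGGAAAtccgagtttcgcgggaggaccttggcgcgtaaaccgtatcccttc
The matches began 33 and 20 bases before the start in E2F1, 26 and 16 in RBL1, 42 in E2F2 and 53 in E2F3. Of 35116 RefSeq promoters, 1.15% held such letters within 100 bases of the start and 2.79% within 250. TFDP1 held them once within 250 bases, 120 bases before its start, and E2F4, E2F7 and RBL2 held none there. These are matches of letters only, and binding was not measured.

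On GRCh38, E2F1 lies at chr20:33675477-33686385 and RBL1 at chr20:36996349-37095997, both on the minus strand. RB1 lies at chr13:48303744-48599436 and TFDP1 at chr13:113584721-113641473, and RBL2 lies at chr16:53433977-53491648, all 3 on the plus strand. All 10 members are annotated as protein coding. Whether reads were counted by strand is not given in the sources used here. Exons of RBL2 share 609 bases with the opposite gene AKTIP and 721 bases with another opposite transcript, and those of RBL1 share 213 bases with an opposite lncRNA, so these 2 counts may hold reads of a neighbour.

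Levels of the members in DMSO cells before any further inhibitor spanned a wide range. In the vehicle arm at 0 h, E2F3 had 140 ± 15.3 CPM after TMM scaling (SD, n = 3) and TFDP1 had 114 ± 30.6. Their libraries overlapped, so their order was not resolved. E2F1 followed at 59.8 ± 3.51 CPM, above RBL1 at 46.2 ± 4.47, E2F4 at 45.9 ± 7.45 and RB1 at 39.5 ± 12.4, whose libraries overlapped. RBL2 stood at 29.4 ± 3.59, which overlapped RB1, and was followed by E2F7 at 17.3 ± 5.64 and E2F8 at 6.64 ± 0.865 CPM. E2F2 was listed with no count in 93 of the 96 libraries. A separate entry, E2F2_1, held 34 counts in all, spread over 26 libraries with at most 3 in any. Its relation to E2F2 is not described in the sources used here, and it was left out of the members. A floor of 3 counts corresponded to between 0.240 and 1.26 CPM depending on the library, so mRNA counted under E2F2 was not detectable at this depth.

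Within groups, 3 of the members moved together from library to library. Of the 96 libraries, RB1 and TFDP1 were on the same side of their group means in 83, and in 29 of the 32 groups both had their highest value in the same library. Across libraries, their deviations had a Pearson r of 0.892 and a Spearman rho of 0.894, with r = 0.883 without the 2 farthest libraries. E2F4 moved with both, with r = 0.811 against RB1 and 0.804 against TFDP1. E2F1 moved the other way, with r = -0.565 against RB1, -0.546 against TFDP1 and -0.656 against E2F4. All values of a library share its total count, so these are descriptions and not independent points.

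The total count of the library moved with these deviations. Against log2 of the total count, the deviations had r = 0.825 for RB1, 0.856 for TFDP1, 0.781 for E2F4 and -0.546 for E2F1. The SD within groups was 0.48 log2 units for RB1, larger than in 98.4% of genes of like level, and 0.16 for RBL2, larger than in 17%. In an edgeR fit with the library total as a covariate, which was added after this was seen, RB1 rose by 0.89 log2 units per doubling of the total (SE 0.075, adjusted p = 7.7e-18), TFDP1 by 0.64 and E2F4 by 0.59, and E2F1 fell by 0.26. The slope was called for 40.5% of all tested genes. Its cause was not tested. Results for these 4 members are therefore given with that fit where it changed a call.

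**Figure D1:**
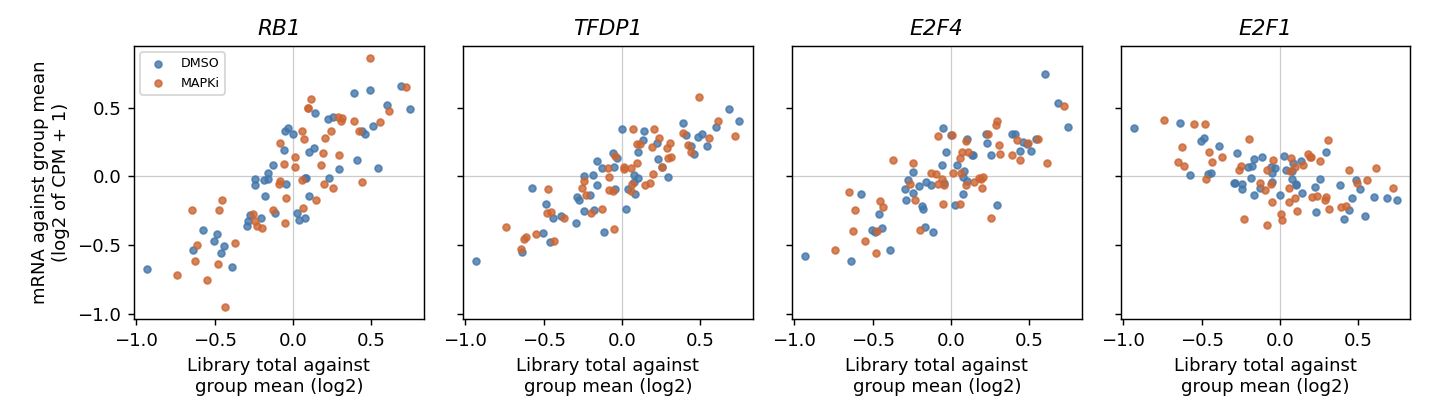
Each point is 1 of 96 libraries. The x axis is log2 of the library's total count minus its group mean, and the y axis is the member's log2 of CPM plus 1 minus its group mean. RB1, TFDP1 and E2F4 climb with the total (r = 0.825, 0.856 and 0.781), and E2F1 declines (r = -0.546), with DMSO and MAPKi libraries intermixed.

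The first comparison asked which members differed after 18 h of MAPKi. Of the 9 tested members, 6 were lower in MAPKi than in DMSO and 1 was higher, against 45.9% of all tested genes called in either direction and 24.0% called lower (edgeR quasi-likelihood, Benjamini-Hochberg, n = 3 per group). E2F1 (-1.80, SE 0.18) and E2F8 (-1.72, SE 0.47) had the largest falls, whose order was not resolved, and RBL2 was the member that rose.

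Among the activators, E2F1 had 60.6, 62.8 and 55.9 CPM in the DMSO libraries and 15.2, 18.1 and 18.2 CPM in the MAPKi libraries. The groups were far apart, and the mean was 3.48-fold higher in DMSO. On the log2 scale E2F1 fell by 1.80 (SE 0.18, adjusted p = 1.9e-14, edgeR). E2F3 had 122, 144 and 152 CPM in DMSO and 80.8, 80.0 and 70.5 CPM in MAPKi. It also separated completely, with a 1.81-fold higher mean in DMSO (log2 difference -0.86, SE 0.13, adjusted p = 2.7e-08, edgeR).

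The repressor members were split. E2F4 had 37.6, 48.2 and 51.9 CPM in DMSO and 24.4, 27.4 and 24.8 CPM in MAPKi, without overlap, and fell by 0.86 on the log2 scale (SE 0.26, adjusted p = 0.0042, edgeR). E2F8, the scarcest member tested, had 6.02, 6.26 and 7.62 CPM in DMSO and 2.33, 2.69 and 1.08 CPM in MAPKi. These MAPKi values rest on 17, 15 and 8 reads. E2F8 fell by 1.72 (SE 0.47, adjusted p = 0.0016, edgeR), but without replicate 3 the change was -1.29 with an adjusted p of 0.082. E2F7, the closest relative of E2F8, had 23.9, 14.1 and 14.1 CPM in DMSO and 17.6, 12.9 and 16.3 CPM in MAPKi, which overlapped (log2 difference -0.13, SE 0.27, adjusted p = 0.74, edgeR). Averaged over all 4 vehicle times, E2F7 was lower in MAPKi by 0.32 log2 units with an adjusted p of 0.036 (edgeR).

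TFDP1, the dimer partner, had 79.3, 125 and 138 CPM in DMSO and 50.5, 45.8 and 44.9 CPM in MAPKi. The groups did not overlap, though the DMSO libraries were themselves widely spaced. TFDP1 fell by 1.28 on the log2 scale (SE 0.25, adjusted p = 1.1e-05, edgeR), and by 1.18 (SE 0.13) with the library total as a covariate.

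The pocket protein genes took 3 different courses. RBL1 had 49.8, 47.6 and 41.2 CPM in DMSO and 31.3, 34.2 and 29.9 CPM in MAPKi, without overlap (log2 difference -0.54, SE 0.15, adjusted p = 0.0022, edgeR). RBL2, whose product p130 is the pocket protein typical of resting cells, had 26.4, 28.5 and 33.4 CPM in DMSO and 46.2, 49.8 and 53.3 CPM in MAPKi. Every MAPKi library was above every DMSO library, and RBL2 rose by 0.75 (SE 0.13, adjusted p = 1.9e-06, edgeR), or 1.69-fold. RB1 had 25.5, 43.5 and 49.3 CPM in DMSO and 51.9, 29.0 and 32.2 CPM in MAPKi. These overlapped widely, and the log2 difference of -0.08 (SE 0.35, adjusted p = 0.89, edgeR) has a larger error than that of any other member but E2F8.

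**Figure D2:**
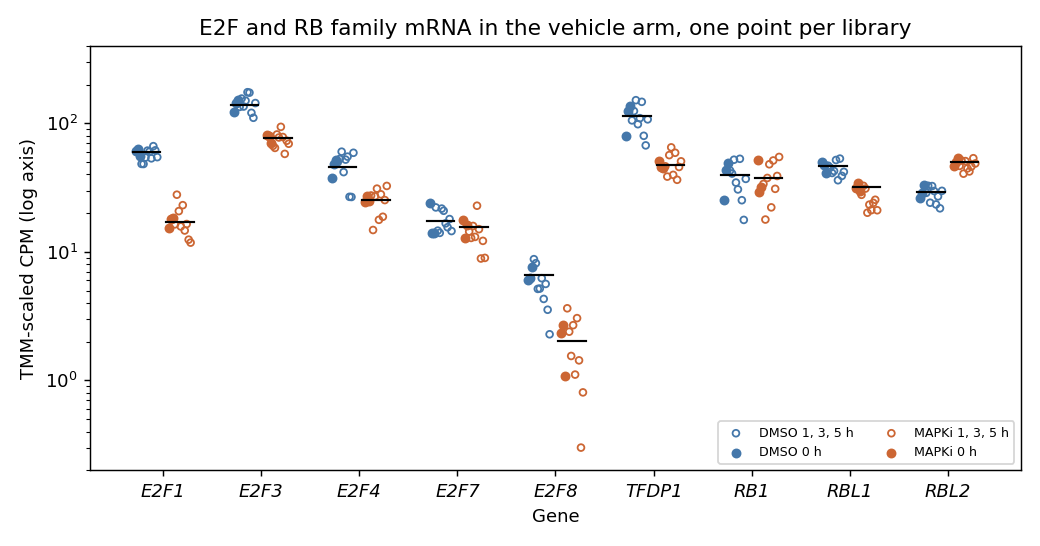
Each point is the TMM-scaled CPM of 1 vehicle library on a log axis, with DMSO in blue and MAPKi in orange, filled points for 0 h, open points for 1, 3 and 5 h, and a bar at the mean of the 0 h libraries. The E2F1, E2F3, TFDP1, RBL1 and RBL2 libraries do not overlap between pretreatments, and 1 E2F8 library with no count is drawn low on the scale because 0 has no place on a log axis.

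Over all 12 vehicle libraries of each pretreatment, 5 members kept their DMSO and MAPKi values apart. E2F1 had a lowest value of 48.2, a median of 58.0 and a highest value of 66.4 CPM in DMSO, against 11.8, 16.4 and 27.8 CPM in MAPKi. For RBL2 the lowest, median and highest values were 21.8, 28.6 and 33.4 CPM in DMSO, against 40.6, 47.7 and 53.5 CPM in MAPKi. E2F3, RBL1 and TFDP1 were the other 3, and E2F4, E2F7, E2F8 and RB1 overlapped. The share of all genes without overlap was not computed. Averaged over the same vehicle times, 69% of all tested genes were called between pretreatments (edgeR), so such separation may not be particular to the members.

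None of the 9 members was called between 5 h and 0 h in the vehicle arm, in DMSO, where 1.06% of genes were called, or in MAPKi, where 3.34% were (edgeR, smallest adjusted p 0.48 in DMSO). The DESeq2 Wald test called none either, and at an unadjusted p under 0.05 edgeR gave 0 members in DMSO and 3 in MAPKi. Over all tested genes that threshold gave 877 higher with 928 lower in DMSO, against 945 with 1278 in MAPKi cells. The members' changes in DMSO lay between -0.83 (E2F8) and 0.02 (E2F1). In MAPKi the changes closest to the threshold were those of RBL1 (log2 -0.44, SE 0.15, adjusted p = 0.10), E2F8 (-1.42, SE 0.56, adjusted p = 0.17) and E2F7 (-0.65, SE 0.28, adjusted p = 0.22), all toward lower levels, and the other 6 lay between -0.35 (E2F1) and 0.14 (RB1).

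Genes around the members gave the setting for these changes. These lists were chosen with earlier results of these data known, and their counts are descriptions. Of 40 genes of the G1/S class that E2F proteins are known to regulate, 39 were lower in MAPKi and none was higher, with a median of -1.17 log2 units against 0.03 over all tested genes. MCM10, a replication initiation factor, fell by 2.39, and UHRF1, which maintains DNA methylation, fell by 1.72. Of 26 G2/M genes bound by the DREAM complex, which joins p130, E2F4 and the MuvB proteins, 17 were lower and none higher, with a median of -0.48, led by KIF23 (-1.07) and UBE2C (-0.96).

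Of the other E2F and DP genes, E2F5 (-2.32) and E2F6 (-0.88) were lower, and TFDP2, another DP partner, was higher by 0.54. TFDP2 had 76.8, 70.6 and 71.6 CPM in DMSO and 101, 107 and 110 CPM in MAPKi, and so moved opposite to TFDP1. Of 9 tested cyclins and kinases that act on RB proteins, 8 were lower, and CCND1 fell by 4.95 and CDK6 fell by 2.52. Of 5 tested CDK inhibitor genes, CDKN2C (1.84) and CDKN1A (1.08) were higher and CDKN2D (-0.70) was lower.

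Of the 7 MuvB, MYBL2 and FOXM1 genes, 3 were lower, among them LIN9 (-1.21) and MYBL2 (-1.17), and LIN37 (0.80) was higher. Of 8 corepressor genes, 4 were higher, among them ARID4A (0.77) and KDM5A (0.57), and HDAC2 (-0.76) and SUV39H1 (-0.58) were lower. The 6 ERK output genes used to check the treatment were all lower, and SPRY4 fell by 8.73 and DUSP6 fell by 8.29.

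Over the 32 group means, genes whose log2 CPM followed E2F1 most closely among 8542 candidates included RANBP1, PA2G4, FKBP4 and MCM4, with Pearson r between 0.989 and 0.991. Those that followed RBL2 were OSBPL1A, CELF2, OAF, DNASE2 and CLCN3, with r between 0.974 and 0.978. The 32 points share the pretreatment difference, so these r describe likeness in this series and carry no p.

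CHX was then compared with vehicle at the same times, averaged over 3 and 5 h, to see which member mRNAs depended on ongoing translation while transcription ran. In DMSO cells, where 31.7% of genes were called, E2F1 and RBL2 were lower with CHX and E2F4 was higher. In MAPKi cells, where 29.9% were called, E2F4, E2F8 and RBL1 were higher and RBL2 was lower. The share of members called, 3 and 4 of 9, was near that of all genes.

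E2F1 in DMSO cells had 61.3, 60.1 and 53.4 CPM at 3 h with vehicle and 42.9, 48.4 and 50.4 CPM with CHX. At 5 h it had 66.4, 61.6 and 54.6 CPM with vehicle and 44.1, 40.2 and 35.8 CPM with CHX. The arms did not overlap at either time, and E2F1 fell by 0.45 log2 units (SE 0.12, adjusted p = 0.0014, edgeR). In MAPKi cells E2F1 had 16.5, 12.4 and 11.8 CPM at 5 h with vehicle and 13.8, 16.7 and 17.4 CPM with CHX. Here the arms overlapped, and the difference was 0.18 (SE 0.13, adjusted p = 0.32, edgeR).

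RBL1 showed the reverse arrangement. In MAPKi cells it had 20.2, 23.3 and 21.1 CPM at 3 h with vehicle and 34.4, 42.0 and 28.6 CPM with CHX. At 5 h it had 24.1, 25.4 and 21.1 CPM with vehicle and 32.7, 40.3 and 38.8 CPM with CHX. Every CHX library was above every vehicle library at both times, and RBL1 was higher with CHX by 0.69 (SE 0.11, adjusted p = 3.0e-07, edgeR). Part of this difference lay in the vehicle arm, whose median was 31.3 CPM at 0 h, 21.1 at 3 h and 24.1 at 5 h. With CHX the medians at these times were 26.0, 34.4 and 38.8 CPM. The change of the vehicle arm from 0 h to 5 h was not itself called. In DMSO cells RBL1 had 53.1, 39.0 and 41.9 CPM at 5 h with vehicle and 45.9, 35.5 and 45.7 CPM with CHX, which overlapped (0.02, SE 0.10, adjusted p = 0.94, edgeR).

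The test of the difference between pretreatments called these 2 members and no other, where 11.2% of all genes were called and 4.64% were called toward higher in MAPKi. The CHX effect in MAPKi exceeded that in DMSO by 0.63 log2 units for E2F1 (SE 0.17, adjusted p = 0.0079, edgeR) and by 0.67 for RBL1 (SE 0.15, adjusted p = 0.00082, edgeR). With the library total as a covariate the differences were 0.63 (adjusted p = 0.0010) and 0.66 (adjusted p = 0.00026). Leaving out replicate 2 ended both calls, with 0.51 for RBL1 (adjusted p = 0.088) and an adjusted p of 0.058 for E2F1, and leaving out replicate 3 ended that of E2F1 (adjusted p = 0.094). E2F8 had a larger and less certain difference of 0.89 (SE 0.48, adjusted p = 0.26, edgeR).

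**Figure D3:**
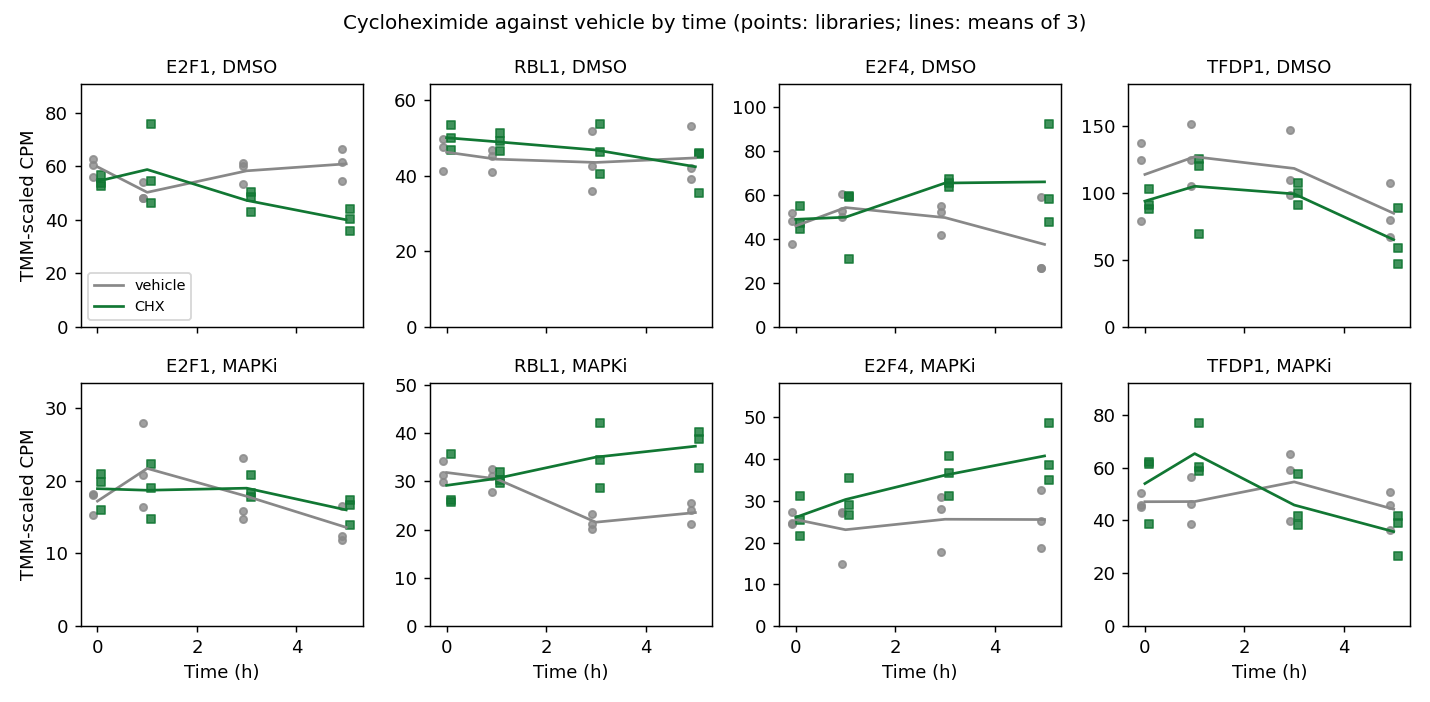
TMM-scaled CPM of E2F1, RBL1, E2F4 and TFDP1 over hours after addition of vehicle (grey) or CHX (green), with DMSO cells above and MAPKi cells below, points for libraries and lines for means of 3. In DMSO cells the E2F1 lines part after 1 h. The single libraries at 5 h lie between 54.6 and 66.4 CPM with vehicle and between 35.8 and 44.1 CPM with CHX. In MAPKi cells the RBL1 lines part in the opposite direction.

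E2F4 was higher with CHX in both pretreatments. In DMSO cells it had 41.7, 52.2 and 55.1 CPM at 3 h with vehicle and 63.6, 65.2 and 67.2 CPM with CHX, without overlap. Averaged over 3 and 5 h, E2F4 rose by 0.59 (SE 0.17, adjusted p = 0.0056, edgeR) in DMSO and by 0.57 (SE 0.18, adjusted p = 0.010, edgeR) in MAPKi. Leaving out replicate 1 or 2 ended the call in both, with adjusted p of 0.071 and 0.063 in DMSO and 0.054 and 0.27 in MAPKi.

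RBL2 was lower with CHX in both, by 0.27 in DMSO (SE 0.098, adjusted p = 0.029, edgeR) and by 0.24 in MAPKi (SE 0.091, adjusted p = 0.034, edgeR). In DMSO the call was lost without replicate 1 (-0.08, adjusted p = 0.72) or replicate 3 (-0.23, adjusted p = 0.19), and in MAPKi without any of the 3 replicates (adjusted p = 0.21, 0.12 and 0.072). At 5 h in MAPKi cells RBL2 had 46.1, 53.5 and 48.7 CPM with vehicle and 36.0, 37.5 and 42.3 CPM with CHX. E2F8 in MAPKi cells had 1.43, 0 and 0.807 CPM at 5 h with vehicle and 2.16, 2.38 and 2.38 CPM with CHX, all below 3 CPM. Its excess over vehicle of 0.92 (SE 0.36, adjusted p = 0.042, edgeR) was lost without replicate 2 (0.34, adjusted p = 0.60) or replicate 3 (1.11, adjusted p = 0.086).

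TFDP1 was not called in either pretreatment, with -0.32 in DMSO (SE 0.17, adjusted p = 0.16) and -0.29 in MAPKi (SE 0.18, adjusted p = 0.23) by edgeR. With the library total as a covariate the SE was smaller and TFDP1 was called lower in both, by 0.45 in DMSO (adjusted p = 4.8e-05) and by 0.39 in MAPKi (adjusted p = 0.00072). The same fit called E2F7 higher in DMSO by 0.48. RB1 and E2F3 were called in neither pretreatment.

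The G1/S list lay on the same side as E2F1 in this difference, with 16 of 40 genes called higher in MAPKi than in DMSO, none lower, and a median of 0.38 against -0.04 over all genes. MCM10 (1.05) and CDT1 (0.80), a factor that licenses replication origins, were among them. In MAPKi cells 15 of the 40 were higher with CHX and 1 was lower, where 15.9% of all genes were higher and 13.9% lower. In DMSO cells 2 were higher and 7 lower, where 18.3% of all genes were higher and 13.5% lower. Of the 26 G2/M genes 5 were called higher in the difference, as were 3 of the 9 cyclins and kinases. Of the 8 corepressor genes 2 were higher and 2 lower, of the 5 CDK inhibitor genes 1 was lower, and none of the MuvB, MYBL2 and FOXM1 list or of the other E2F and DP genes was called. Their calls without single replicates were not computed.

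**Figure D4:**
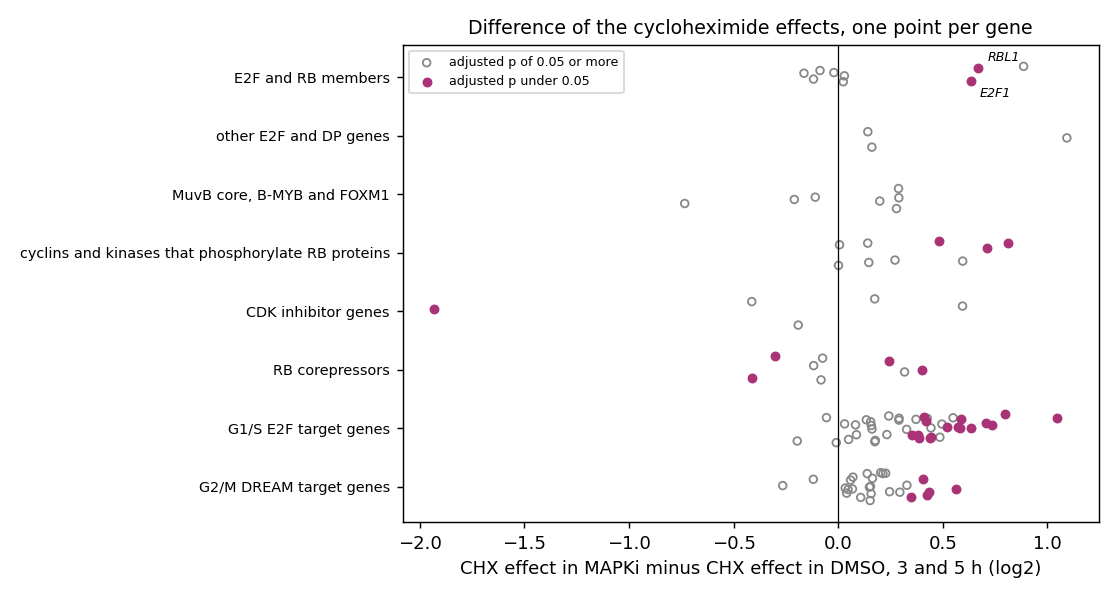
Each point is a tested gene, placed by the CHX effect in MAPKi minus that in DMSO on the log2 scale, in rows for the members and 7 related lists, filled where the adjusted p was under 0.05. E2F1 (0.63) and RBL1 (0.67) are the filled points among the members, and all 16 filled G1/S genes lie right of 0.

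Triptolide was used to ask how fast each mRNA was lost once transcription stopped. Libraries were scaled here on 36 genes whose share of the reads rose after triptolide, a scaling adapted from the study's methods. A rise was required at both 3 and 5 h, which is stricter than the rule of the study, where either time is enough. With the 526 genes that rose at either time, E2F1 was no longer called lower in DMSO (-0.35, adjusted p = 0.063), and E2F4 was called there (-0.46, adjusted p = 0.031), both by edgeR. The scaling matters, because under TMM the median of all genes moved in DMSO from -0.47 to 0, and in MAPKi to 0.05 from -0.59. Of the 9 members, 5 were lower after triptolide than in the vehicle arm at 0 h in DMSO, where 50.0% of genes were called and 48.7% were lower. In MAPKi 6 were lower, where 57.4% were called and 56.1% were lower.

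The members ranged from 11.3% to 107% of their initial level after 5 h in DMSO. E2F3, the activator with alternative promoters, had 952, 1050 and 1067 normalised counts in DMSO at 0 h, and 323, 230 and 208 after 5 h of triptolide. In MAPKi it went from 599, 591 and 509 to 82.6, 98.8 and 143. No library after 5 h reached the initial level, and 25.1% ± 7.70 of E2F3 mRNA was left in DMSO cells (SD, n = 3), against 19.6% ± 7.59 in MAPKi cells. The half-life from the slope over 0 to 5 h was 2.37 ± 0.302 h in DMSO and 2.08 ± 0.267 h in MAPKi, and under TMM it was 3.2 ± 0.456 and 3.10 ± 0.441 h. The mean change over 3 and 5 h was -1.67 (SE 0.11, adjusted p = 2.0e-23, edgeR) in DMSO and -1.92 (SE 0.11, adjusted p = 7.2e-26, edgeR) in MAPKi.

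E2F8 had the shortest mean half-life in both pretreatments, 1.79 ± 0.339 h in DMSO and 1.5 ± 0.777 h in MAPKi, with replicates that overlapped those of E2F3, and 2.23 ± 0.473 and 2.09 ± 1.43 h under TMM. In DMSO it went from 46.8, 45.6 and 53.5 normalised counts at 0 h to 5.88, 7.06 and 3.13 at 5 h, or 11.3% ± 4.94, a change of -2.91 (SE 0.40, adjusted p = 3.2e-09, edgeR). In MAPKi the 5 h libraries held 9, 1 and 1 reads of E2F8, so that the change of -1.99 (SE 0.49, adjusted p = 0.00034, edgeR) rested on very few reads and was lost without replicate 2 (-1.20, adjusted p = 0.068).

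E2F7 had a half-life of 3.14 ± 1.79 h in DMSO and 3.06 ± 0.209 h in MAPKi, and fell by 1.57 (SE 0.24, adjusted p = 7.3e-08, edgeR) and by 1.43 (SE 0.24, adjusted p = 4.9e-07, edgeR). In DMSO 1 of its 5 h libraries stood at 13.1 normalised counts and the others at 47.8 and 48.6, which widened the error there. Under TMM its half-life was 5.42 ± 4.40 h in DMSO and 5.98 ± 0.930 h in MAPKi. RBL1 had 387, 347 and 289 normalised counts in DMSO at 0 h and 218, 156 and 161 at 5 h, without overlap, and fell by 0.82 (SE 0.13, adjusted p = 2.6e-07, edgeR). In MAPKi it fell by 0.90 (SE 0.14, adjusted p = 5.6e-08, edgeR), with half-lives of 4.73 ± 1.42 h in DMSO and 3.83 ± 0.573 h in MAPKi. These half-lives rest on the scaling, since they were 11.2 ± 7.13 and 10.3 ± 4.22 h under TMM and 7.24 ± 2.87 and 5.66 ± 1.05 h with total counts. Under TMM the RBL1 change in MAPKi was -0.25 and no longer called (adjusted p = 0.13, edgeR).

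Of the other members, E2F4 was at 75.1% ± 4.34 of its initial level in DMSO and at 59.6% ± 3.47 in MAPKi after 5 h, and RBL2 at 84.2% ± 19.3 and 74.3% ± 14. After 5 h of triptolide E2F1 was at 73.2% ± 5.19 of its initial level in DMSO and at 89.1% ± 14.5 in MAPKi. E2F1 was called lower in DMSO (-0.36, SE 0.15, adjusted p = 0.034, edgeR), a call that was lost without replicate 1 (adjusted p = 0.10) or replicate 2 (adjusted p = 0.16) and whose direction turned under TMM (0.11). In MAPKi its change was -0.03 (adjusted p = 0.91, edgeR), and its direction there also turned under TMM (0.62). RBL2 was called in MAPKi (-0.48, SE 0.12, adjusted p = 0.00028, edgeR) but not in DMSO (-0.22, SE 0.12, adjusted p = 0.12), and E2F4 likewise in MAPKi (-0.56, SE 0.22, adjusted p = 0.023) but not in DMSO (-0.47, SE 0.21, adjusted p = 0.051). The E2F4 call in MAPKi was lost without replicate 1 (adjusted p = 0.068) or replicate 2 (adjusted p = 0.15), and under TMM the MAPKi values of both RBL2 (0.17) and E2F4 (0.079) turned above 0. With the triptolide arm at 0 h as the initial level neither E2F1 in DMSO (-0.21) nor E2F4 in MAPKi (-0.05) was called.

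RB1 and TFDP1 were not called lower in either pretreatment. RB1 was at 107% ± 18.7 in DMSO and 116% ± 59.4 in MAPKi after 5 h, and TFDP1 at 91.1% ± 12.3 and 103% ± 24.8. Their mean slopes over 5 h were at or above 0, so that no half-life could be given. With the library total as a covariate TFDP1 was called lower in DMSO (-0.28, adjusted p = 0.027, edgeR), as was E2F4 (-0.63), and the RB1 values were -0.22 and -0.15, neither of them called.

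No member's loss was called different between MAPKi and DMSO, where 3.17% of all genes were called (edgeR, smallest adjusted p 0.56; 0 members at an unadjusted p under 0.05, where 369 of all genes were higher and 1579 lower, and 0 by the DESeq2 Wald test). For E2F3 the difference was -0.25 (SE 0.16) and for RBL1 -0.07 (SE 0.20). E2F1, E2F3, E2F4, E2F8, TFDP1 and RBL1, the members called lower in MAPKi, were thus among those with no called difference in loss. An uncalled difference does not show that the losses were equal. The initial vehicle libraries are shared between the 2 kinds of comparison, and the part of decay in the lower levels was not tested.

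Features of the transcripts are given as descriptions, and their relation to the losses was not tested. In the GENCODE transcripts, the AU-rich pentamer ATTTA occurred 14 times in the 3′ untranslated region of E2F7, 12 times in RB1, 9 in E2F3, 6 each in E2F1 and RBL2, 5 in TFDP1, 4 each in E2F4 and RBL1, 2 in E2F2 and 1 time in E2F8, against a median of 2 over 19028 genes. The share of GAA and GAT codons was 8.94% in RB1, 7.20% in RBL2 and 7.02% in RBL1, and 1.14% in E2F1, against a median of 4.41%.

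CHX given with triptolide asked how much of the loss needed translation. In DMSO 4 members had more mRNA in TCHX than in T over 3 and 5 h, where 28.9% of genes were called and 28.4% were higher. In MAPKi 6 had more, where 42.0% were called and 41.4% were higher. No member was called lower in either.

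RBL1 was the member whose TCHX and T libraries did not overlap at either 3 or 5 h in either pretreatment. At 5 h it had 218, 156 and 161 normalised counts with T and 253, 250 and 296 with TCHX in DMSO. In MAPKi it had 118, 106 and 75.9 with T and 163, 191 and 212 with TCHX. RBL1 rose by 0.57 in DMSO (SE 0.11, adjusted p = 2.7e-05, edgeR) and by 0.69 in MAPKi (SE 0.12, adjusted p = 5.4e-07, edgeR). At 5 h 79.9% ± 19.9 of it was left with TCHX in DMSO, against 52.3% ± 6.36 with T.

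E2F3 had 323, 230 and 208 normalised counts with T and 370, 356 and 364 with TCHX at 5 h in DMSO, without overlap. E2F3 rose by 0.49 in DMSO (SE 0.094, adjusted p = 1.5e-05, edgeR) and by 0.64 in MAPKi (SE 0.10, adjusted p = 1.1e-07, edgeR). Even so, 35.6% ± 2.80 and 36.9% ± 8.59 of the initial E2F3 mRNA was left after 5 h of TCHX, so most of it was lost in the presence of CHX as well.

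E2F7 had 39.2, 44.8 and 37.9 normalised counts with T and 88.0, 93.3 and 73.5 with TCHX at 5 h in MAPKi, and rose by 0.95 (SE 0.21, adjusted p = 9.6e-05, edgeR). In DMSO its rise of 0.66 (SE 0.21, adjusted p = 0.011, edgeR) fell to 0.25 without replicate 3, the replicate with the lone low T library. E2F8 rose by 1.46 in DMSO (SE 0.37, adjusted p = 0.0013, edgeR), from 5.88, 7.06 and 3.13 normalised counts to 17.9, 12.9 and 28.8 at 5 h. Without replicate 3 that value was 1.22, with an adjusted p of 0.062. In MAPKi its rise of 1.29 (SE 0.43, adjusted p = 0.011, edgeR) was lost without replicate 2 (0.32, adjusted p = 0.72).

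E2F4 (0.53, SE 0.18, adjusted p = 0.013) and RBL2 (0.31, SE 0.096, adjusted p = 0.0056) were higher with TCHX in MAPKi by edgeR. The first was lost without replicate 2 (adjusted p = 0.093) and the second without replicate 1 (adjusted p = 0.054). With the 526 genes E2F4 was also called in DMSO (0.41, adjusted p = 0.033, edgeR), as it was with the library total as a covariate (0.49). The covariate also gave a call to E2F1 in MAPKi (0.27, adjusted p = 0.037). RB1 was at -0.30 in DMSO and -0.34 in MAPKi, and TFDP1 at -0.20 and -0.13, none of them called. Under TMM the calls of E2F7 in DMSO (0.45) and of E2F8 (0.92), E2F4 (0.15) and RBL2 (-0.08) in MAPKi were lost. The difference between pretreatments was not called for any member, where 7.11% of genes were called (edgeR, smallest adjusted p 0.40; 0 members at an unadjusted p under 0.05, where 2440 of all genes were higher and 334 lower, and 0 by the DESeq2 Wald test).

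**Figure D5:**
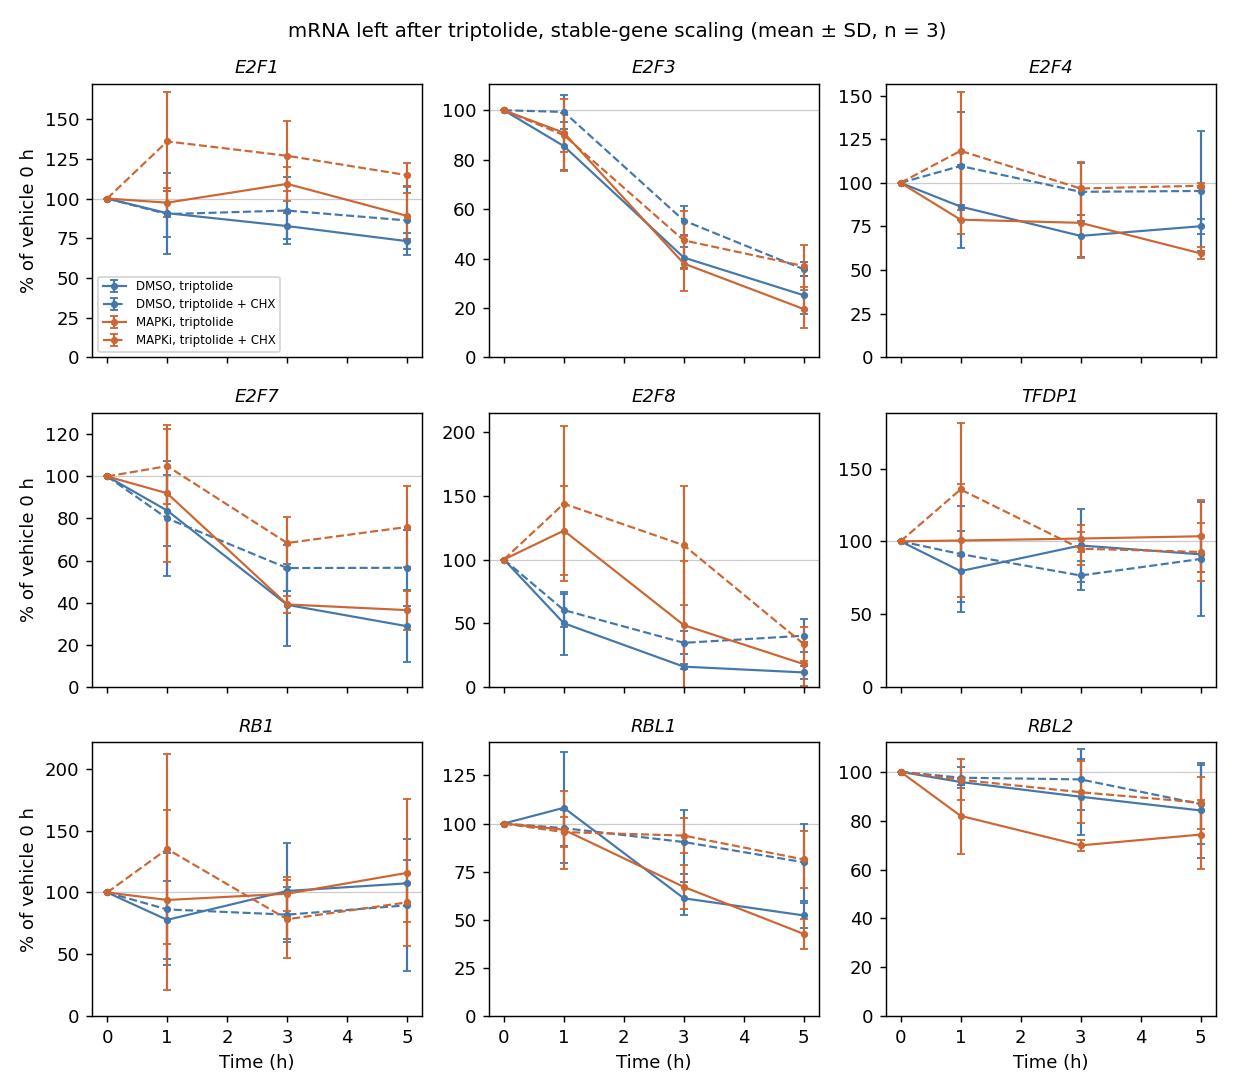
Percent of the vehicle level at 0 h left after triptolide (solid) or triptolide with CHX (dashed) against hours, in DMSO (blue) and MAPKi (orange), as mean ± SD of 3 replicates on stable-gene scaling. E2F3, E2F7, E2F8 and RBL1 decline under triptolide, to 25.1%, 28.8%, 11.3% and 52.3% at 5 h in DMSO, and the mean levels of RB1 and TFDP1 lie between 76.5% and 136% with wide errors.

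The index of translation-dependent decay (TDD) is the normalised count in TCHX minus that in T, divided by the initial count, averaged here over 3 and 5 h. For RBL1 it was 0.284 ± 0.0649 in DMSO cells (SD of replicate means, n = 3) and 0.326 ± 0.0805 in MAPKi cells, above the all-gene medians of 0.124 and 0.185. E2F8 reached 0.238 ± 0.0845 and 0.392 ± 0.195, and E2F7 0.226 ± 0.275 and 0.344 ± 0.111. The single E2F8 values in MAPKi ran from -0.175 to 0.720 and rest on the few reads given above. E2F3 stood near the median in DMSO, at 0.127 ± 0.0328, and at 0.134 ± 0.0201 in MAPKi.

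For E2F4 it was 0.227 ± 0.114 and 0.292 ± 0.0671, for E2F1 0.114 ± 0.0460 and 0.217 ± 0.139, and for RBL2 0.0486 ± 0.106 and 0.174 ± 0.0188. RB1 and TFDP1 lay at the other end. RB1 had -0.184 ± 0.0887 in DMSO and -0.222 ± 0.288 in MAPKi, at the 4.0th and 2.6th percentile of all genes. TFDP1 had -0.119 ± 0.0352 and -0.0888 ± 0.109. Both are members whose level moved with the library total, and the index is not corrected for it. The index did not differ between MAPKi and DMSO at an adjusted p under 0.05 for any member, with 0.00798% of the 12532 genes called (limma, smallest adjusted p 0.47; 0 members at an unadjusted p under 0.05, where 1512 of all genes were higher and 234 lower).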

How the data were processed

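The deposited values are raw counts, which the authors did not normalize. Per the submitters' processing notes and the study's methods, reads were processed with fastp 0.20.1, HISAT2 2.2.1 and HTSeq 0.13.5, and forward reads were counted on exons of GRCh38. Strand use in counting is not given in the sources used here. No molecular identifiers are described, so floors of 3 counts cover counting error only.

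Groups were taken from the labels. Counts were fitted with edgeR 4.0.16 in R 4.3.3, with filterByExpr and 1 mean for each of the 32 groups over all 96 libraries. Tests were two-sided, adjusted by Benjamini-Hochberg over all tested genes and called under 0.05. TMM was used without triptolide. Comparisons with triptolide used DESeq2 1.42.0 size factors over 36 stable genes: CPM above 0.2 at 0 h, rising at least 1.1-fold at both 3 and 5 h, where the study's rule reads 3 or 5 h (526 genes, run as an alternative). The TDD index was fitted with limma 3.58.1 on condition, time and replicate. Deviations from group means used log2 of CPM plus 1. Promoters came from RefSeq, where 9 of the 10 members matched by symbol (E2F8 did not), and the entry of RB1 is not at the gene's start and was not used. Likeness was computed among genes with a mean of at least 10 CPM, and 1 result of it is not reported here.

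Alternatives were other scalings, no filter, the DESeq2 Wald test, a replicate block, other times or initial levels, leaving out each replicate and, added after the data were seen, the library total as a covariate. All members were to be named in each comparison, and uncalled members are given in part by ranges or by the smallest adjusted p alone. Of each list, at most the 2 called genes with the largest rise and the 2 with the largest fall in MAPKi against DMSO were named, and MCM10 and CDT1 in the CHX difference were chosen after their values were seen. The members and lists were chosen with earlier results of these data known. The scripts were tested on simulated data.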

Additional observations from a re-analysis of the deposited data

Results flagged for a closer look

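The CHX effect on 2 members was called different between pretreatments by the interaction test, which is what marked them. It was 0.63 log2 units higher in MAPKi than in DMSO for E2F1 and 0.67 higher for RBL1 (edgeR, adjusted p = 0.0079 and 0.00082, n = 3 per group). For E2F1 the difference came with a fall in DMSO cells and no call in MAPKi cells. For RBL1 it came with a level above vehicle in MAPKi cells, where the vehicle arm was itself lower at 3 and 5 h than at 0 h, and no call in DMSO cells. Leaving out replicate 2 ended both calls, and leaving out replicate 3 ended that of E2F1.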

How the results depend on the processing

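Over the alternatives run, called member values kept their direction and side of the threshold in 311 cases, lost the call in 45 and reversed in 7, and uncalled values reversed in 99, stayed in 612 and became called in 23. Leaving out a replicate gave 1 to 3 called members for CHX in DMSO (3 with all libraries), 1 to 2 in MAPKi (4) and 0 to 2 in the difference (2). The share of all genes called fell as well, in DMSO from 31.7% to between 22.6% and 24.6%. In MAPKi it fell from 29.9% to between 20.3% and 23.8%, and in the difference from 11.2% to between 5.53% and 7.68%. At 1 h only, CHX called 0 members in DMSO and 0 in MAPKi, where 0.0803% and 0.0736% of all genes were called, and E2F1 (0.21), E2F4 (-0.10) and RBL2 (0.099) reversed in DMSO, as did E2F1 (-0.19) and TFDP1 (0.46) in MAPKi. The library total as a covariate, chosen after seeing the data, gave 5 called members for CHX in DMSO. In that fit 2914 of all tested genes were called higher and 2243 lower, against 2733 and 2011 without the covariate. The covariate also reversed RB1 in MAPKi against DMSO (0.064) and under triptolide (-0.22 in DMSO, -0.15 in MAPKi), and gave 0.026 for E2F1 and -0.085 for TFDP1 under triptolide in MAPKi. RB1 in MAPKi against DMSO was 0.0036 over all vehicle times. RBL1 with CHX in DMSO was -0.0088 with DESeq2 size factors, -0.0044 without the filter and -0.0077 with the DESeq2 Wald test. Total counts and stable genes were tried as scalings only for comparisons with triptolide, so dependence on scaling cannot be ranked against the other comparisons. The scaling did move the triptolide values. Under TMM the change was 0.11 for E2F1 and 0.33 for TFDP1 in DMSO and 0.62 for E2F1, 0.079 for E2F4 and 0.17 for RBL2 in MAPKi, and TCHX minus T was -0.055 for E2F1 in DMSO and -0.096 for E2F1 and -0.079 for RBL2 in MAPKi. With total counts it was 0.18 for TFDP1 in DMSO and 0.33 for E2F1 in MAPKi, with triptolide at 0 h as the initial level 0.092 for TFDP1 in DMSO, and with 526 stable genes 0.034 for E2F1 in MAPKi.

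Under TMM the percent left after 5 h of triptolide in DMSO was 108 for E2F1, 37.2 for E2F3, 111 for E2F4, 16.6 for E2F8, 159 for RB1, 77.4 for RBL1, 124 for RBL2 and 135 for TFDP1. In MAPKi it was 151 for E2F1, 32.7 for E2F3, 101 for E2F4, 61.4 for E2F7, 194 for RB1, 72.6 for RBL1, 126 for RBL2 and 174 for TFDP1. With total counts in DMSO it was 93.9 for E2F1, 96.5 for E2F4, 138 for RB1, 67.2 for RBL1, 108 for RBL2 and 117 for TFDP1, and in MAPKi 117 for E2F1, 78.6 for E2F4, 48.2 for E2F7, 56.4 for RBL1, 98.1 for RBL2 and 137 for TFDP1. The causes were not tested. On leaving out replicates, RB1 ranged from -0.60 to 0.23 and E2F7 from -0.30 to 0.057 in MAPKi against DMSO, RBL1 with CHX in DMSO from -0.094 to 0.13, and under triptolide RB1 from -0.18 to 0.24 and TFDP1 from -0.22 to 0.025 in DMSO, and RB1 from -0.21 to 0.24, E2F1 from -0.097 to 0.049 and TFDP1 from -0.070 to 0.10 in MAPKi.

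Libraries of the same replicate number shared little (5 of 45 pairs of libraries had a correlation of deviations over 0.1), so the main edgeR tests did not use the numbers as pairs. The percent left, the half-lives and the TDD index did combine libraries of the same number, and the TDD fit held the replicate as a term. Their SDs therefore rest on a pairing with little shared deviation. With the replicate as a block, E2F7 with CHX in DMSO (0.43, adjusted p = 0.049) and E2F4 under triptolide in DMSO (-0.47, adjusted p = 0.048) were added by edgeR and no call ended. E2F8 and E2F2 are limited by their counts, with 20 reads of E2F8 in the median library.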
